A study of Mus musculus with 24 samples.

Results

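Plasma cells are the antibody-secreting end stage of the B cell lineage. The 10 genes described here are switched heavy chain constant genes, the kappa constant gene, the J chain gene and 3 transcription factor genes. Not all of them are particular to this stage. They are the rows of the deposited files whose Ensembl identifiers map to Igha, Ighg1, Ighg2b, Ighg2c, Ighg3, Igkc, Jchain, Xbp1, Prdm1 and Irf2. They form a list of gene names rather than a cut on measured values, and all 10 were found among 45792 genes in the files, of which 24874 were not listed at 0 in every library. Liver cells came from female C57BL/6 mice kept for 2 weeks on food lacking methionine and choline, which brings on steatohepatitis. Liposomes marked with DiI, a membrane dye, were given into a vein, and 24 hours later CD11c+ MHC class II+ cells were sorted by whether they carried the dye. The 4 groups of 3 libraries share strain, sex, diet and gate. They are the DiI-positive and the DiI-negative sort after empty liposomes, and the same pair of sorts after liposomes filled with curcumin, a plant polyphenol. There was no group without liposomes or without the diet, so every value is from livers on this diet. Nothing in the labels tells if replicate libraries are of different mice or of pooled mice, so the p-values reflect spread among libraries that may be technical in part.

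A B cell first makes heavy chain from Ighm and Ighd. Class switching then joins its variable region to a downstream constant gene, an Ighg gene or Igha, and sets whether the antibody is IgG or IgA. Most mouse antibodies pair a heavy chain with the kappa light chain, whose constant region is Igkc. Jchain encodes the joining chain that links IgM and IgA into polymers, and plasmacytoid dendritic cells also transcribe it. Prdm1 encodes Blimp-1, the repressor that ends the B cell programme. Xbp1 encodes the factor that expands the secretory pathway, and both of these factors also act in dendritic cells and macrophages. Irf2 encodes an interferon regulatory factor that binds interferon response elements and is expressed in many cell types.

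The heavy chain genes lie together on the minus strand of chromosome 12 (GRCm38, GENCODE M21). Their transcription order is Ighg3 (113356224 to 113361232), Ighg1 (113325240 to 113330523), Ighg2b (113302965 to 113307933), Ighg2c (113285325 to 113288932) and Igha (113254830 to 113260236). Igkc lies on chromosome 6 (70726435 to 70726966, plus strand), Jchain on chromosome 5 (88519809 to 88527891, minus strand) and Xbp1 on chromosome 11 (5520659 to 5525893, plus strand). Prdm1 lies on chromosome 10 (44437177 to 44528501, minus strand) and Irf2 on chromosome 8 (46739732 to 46847458, plus strand). The IgG constant genes are the members whose reads could be mistaken for one another, and the hinge, the flexible joint between the antigen-binding arms and the stem, is where they differ most visibly. The hinge exons of the 4 IgG genes are shown from the GENCODE M21 transcripts, on the minus strand of GRCm38, with the in-frame cysteine codons in capitals.
Ighg3, chr12:113360529-113360576: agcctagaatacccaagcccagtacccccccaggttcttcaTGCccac
Ighg1, chr12:113329844-113329882: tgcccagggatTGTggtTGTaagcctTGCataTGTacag
Ighg2b, chr12:113307261-113307326: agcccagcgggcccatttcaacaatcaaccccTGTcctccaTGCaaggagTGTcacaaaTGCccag
Ighg2c, chr12:113288263-113288325: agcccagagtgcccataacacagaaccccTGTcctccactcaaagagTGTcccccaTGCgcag
The Ighg3 hinge exon has 48 bases and 1 cysteine codon, that of Ighg1 39 bases and 4, that of Ighg2b 66 bases and 4, and that of Ighg2c 63 bases and 3. Hinge cysteines form the disulphide bonds that join the heavy chains. Over the neighbouring exons for the first and second constant domains, Ighg2b and Ighg2c were 91.1% identical, while Ighg1 and Ighg3 were 76.5% identical. Of all 50-base windows in the annotated exons, 4.1% of those of Ighg2b, 5.5% of Ighg2c, 1.6% of Ighg3 and 0.4% of Ighg1 also occurred in another IgG gene. No 100-base window was shared, and Igha and Igkc shared no 50-base window with the other constant genes searched. How the authors' counting treated shared reads is not given in the sources used here, so small IgG values are uncertain to that extent.

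The values are the authors' gene-level log2 values, which have the form of a shrunken (regularized log) scale. On such a scale differences of low genes are understated. Compared per kilobase of exon, Igkc had the highest mean level of the 10 genes (14.24, log2 value less log2 of the exon length in kilobases), followed by Xbp1 (11.45), Irf2 (8.30) and Prdm1 (7.10). Ighg2b (5.88), Jchain (5.79), Igha (5.15) and Ighg3 (4.58) followed, and Ighg1 (0.82) and Ighg2c (0.29) came last. The neighbours Ighg2b, Jchain and Igha differ by less than their SD over the 12 libraries (1.30, 1.27 and 2.13), so their order is not resolved. The unswitched heavy chain Ighm stood at 14.62 per kilobase, close to Igkc, so the switched genes were low beside it in these sorted cells.

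Ighg1 and Ighg2c were near the bottom of the scale. Ighg1 lay within 0.1 of its lowest log2 value, 2.15, in 11 of 12 libraries and reached 2.60 in curcumin DiI-negative library 2. Ighg2c lay between 0.69 and 0.75 in all 12 libraries. Both fell below the filter of a mean log2 value of at least 4, so 8 of the 10 genes were tested. A shrunken value of this kind does not tell whether any read was counted in a given library.

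**Figure D1:**
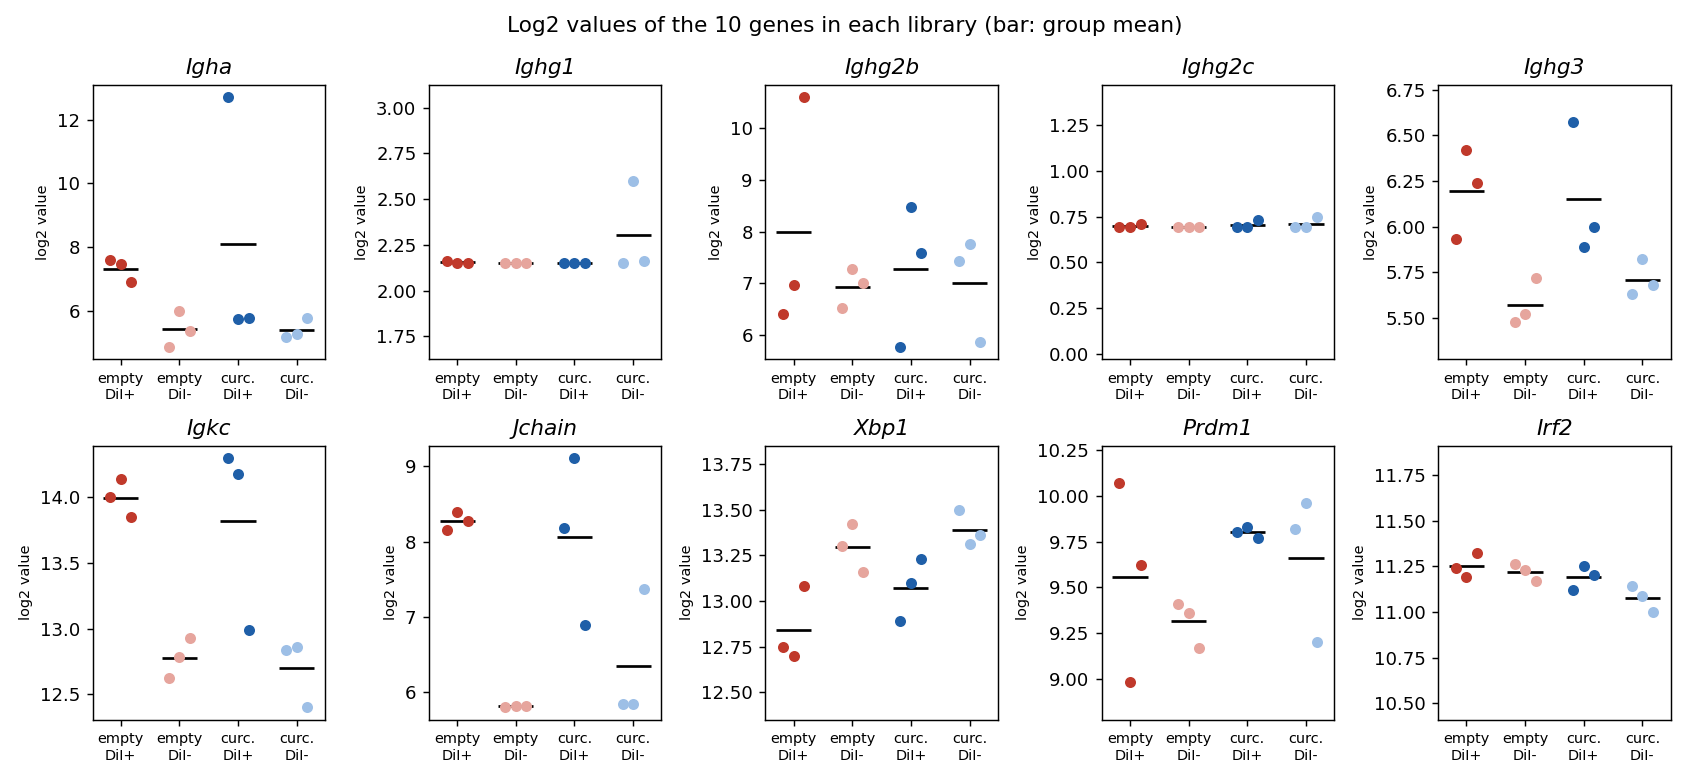
Log2 value (y axis, own range in each panel) of each of the 10 genes in the 12 libraries, with 1 point per library in the order 1 to 3 and a bar at the group mean (curc., curcumin). Jchain and Igkc are higher in DiI-positive cells, Xbp1 is lower, and Igha and Ighg2b each have 1 library far above the rest (12.70 and 10.59).

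The comparison between DiI-positive and DiI-negative cells asks how cells that took up liposomes differ from cells of the same gate that did not. Over both liposomes, Jchain, Igkc and Ighg3 were higher in DiI-positive cells and Xbp1 was lower. The other 4 tested genes, Igha, Ighg2b, Prdm1 and Irf2, did not pass. In this contrast 5.54% of all 14227 tested genes were called higher and 6.56% lower (limma, Benjamini-Hochberg adjusted p under 0.05), against 3 higher and 1 lower among the 8 tested members. The median difference of the 8 was 0.60, and that of all tested genes was 0.01.

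Jchain showed the widest gate difference of the members that passed. Its log2 values were 8.15, 8.40 and 8.28 in the empty DiI-positive libraries and 5.80, 5.82 and 5.82 in the empty DiI-negative ones. After curcumin liposomes they were 8.18, 9.11 and 6.90 in DiI-positive and 5.85, 5.84 and 7.37 in DiI-negative libraries. The groups stood clearly apart after empty liposomes, whereas after curcumin liposomes the third DiI-negative library lay above the third DiI-positive one. Jchain lay within 0.1 of its lowest value, 5.80, in 5 libraries, all of them DiI-negative. A shrunken value of this kind does not tell whether any read was counted there, so the size of the gate difference is uncertain. The mean gate difference was 2.09 ± 0.35 (SE, n = 6 libraries a gate; limma adjusted p = 0.0035). It was 2.46 ± 0.49 after empty liposomes (adjusted p = 0.0257) and 1.71 ± 0.49 after curcumin liposomes (adjusted p = 0.0874). In the first of these contrasts 1.32% of all tested genes were called higher and 1.62% lower, and in the second 1.41% and 1.67%. The empty-liposome call ended without any 1 of the 6 libraries compared (adjusted p from 0.0607 to 0.0888). The curcumin difference passed without curcumin DiI-positive library 3 (2.29, adjusted p = 0.0091) or DiI-negative library 3 (2.22, adjusted p = 0.0439).

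The third curcumin libraries of both gates also stood apart in markers of several cell types, among them plasmacytoid dendritic cells. Siglech, a surface receptor of those cells, was at 11.28 and 11.48 there and between 5.79 and 9.08 in the other 10 libraries. The mean of the 6 plasmacytoid markers was 9.86 and 9.98 in these libraries and 7.47 to 8.70 in the others. None of the 6 was at 0 in any library, which on this scale does not show that reads were counted. The mean of the 5 markers of type 1 conventional dendritic cells was 10.65 and 11.19 in the third curcumin libraries and 8.91 to 10.16 in the others. The mean of the B cell markers was the lowest of its gate in each, 11.79 and 11.03. The part of any of these cells in the Jchain values was not tested. With both libraries left out, an alternative chosen after seeing the data, the curcumin gate difference of Jchain was 2.80 (adjusted p = 0.00149) and the mean gate difference was 2.63 (adjusted p = 4.97e-05).

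Igkc separated the gates completely. Its log2 values were 14.00, 14.14 and 13.85 in empty DiI-positive and 12.62, 12.78 and 12.93 in empty DiI-negative libraries. After curcumin liposomes they were 14.30, 14.18 and 12.99 in DiI-positive and 12.84, 12.86 and 12.40 in DiI-negative libraries. Every DiI-positive library lay above every DiI-negative one, though curcumin DiI-positive library 3 did so by little. The mean gate difference was 1.17 ± 0.20 (adjusted p = 0.00363), with 1.22 ± 0.28 after empty (adjusted p = 0.0408) and 1.12 ± 0.28 after curcumin liposomes (adjusted p = 0.0553). The empty-liposome call ended without any 1 of the 6 libraries compared, or without curcumin DiI-negative library 1 or 2 (adjusted p from 0.0568 to 0.148). Without curcumin DiI-positive library 3 the curcumin difference was 1.54 (adjusted p = 0.000844).

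Ighg3, the IgG gene nearest to Ighm and Ighd, also had no overlap between the gates, over a much narrower range. Its log2 values were 5.93, 6.42 and 6.24 in empty DiI-positive and 5.48, 5.52 and 5.72 in empty DiI-negative libraries. They were 6.57, 5.89 and 6.00 in curcumin DiI-positive and 5.63, 5.82 and 5.68 in curcumin DiI-negative libraries. The mean gate difference was 0.53 ± 0.13 (adjusted p = 0.019), while neither 0.62 ± 0.18 after empty (adjusted p = 0.0899) nor 0.44 ± 0.18 after curcumin liposomes (adjusted p = 0.213) passed. The mean difference did not pass without empty DiI-negative library 1 (0.51, adjusted p = 0.0504). Igkc and Ighg3 were thus the 2 of 8 tested members without overlap between 6 and 6 libraries, both higher. Of all tested genes, 2.52% were higher and 3.52% lower without overlap. Within the empty-liposome libraries, Jchain, Igkc, Igha and Ighg3 were higher and Xbp1 lower without overlap, where 12.3% of all tested genes were higher and 14.5% lower.

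**Figure D2:**
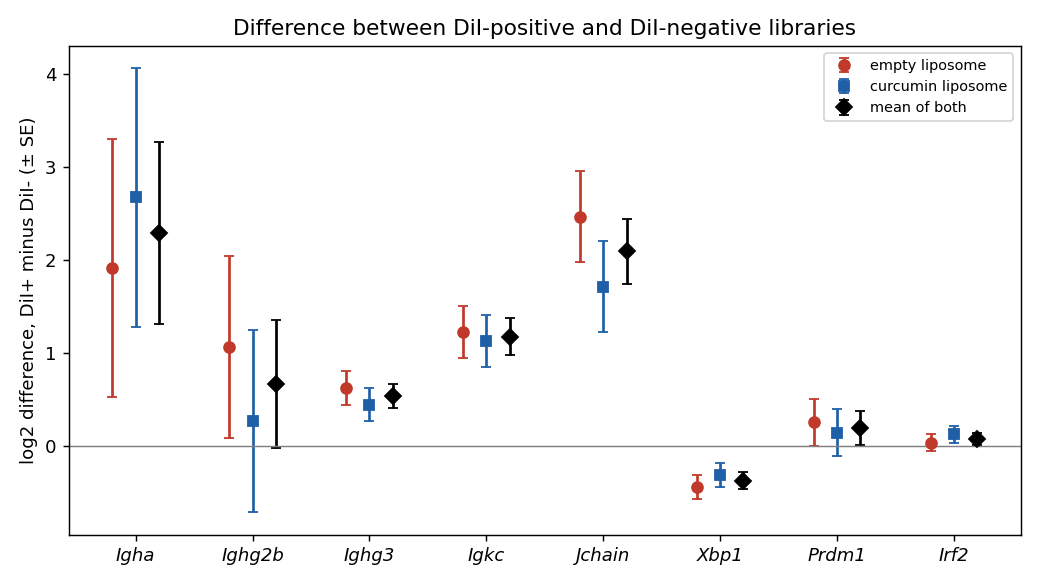
Log2 difference between DiI-positive and DiI-negative libraries (y axis; error bars, SE of the limma fit) for the 8 tested genes, after empty liposomes (circles), curcumin liposomes (squares) and as the mean of both (diamonds). Jchain (2.09) and Igkc (1.17) lie clear of 0, Xbp1 lies below it (-0.38), and Igha has a larger mean (2.29) with an SE of 0.98.

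Igha and Ighg2b each had 1 library far above the rest. Igha stood at 7.60, 7.47 and 6.91 in empty DiI-positive and 4.88, 6.01 and 5.37 in empty DiI-negative libraries. It stood at 12.70, 5.76 and 5.79 in curcumin DiI-positive and 5.18, 5.28 and 5.78 in curcumin DiI-negative libraries. Curcumin DiI-positive library 1 was 5.11 above the next library, a 34.4-fold gap on this scale, while the remaining 11 libraries spanned 2.72. The mean gate difference was 2.29 ± 0.98 (adjusted p = 0.161). Without that library it was 1.13 and passed (adjusted p = 0.00766), and the empty-liposome difference, 1.91 ± 1.39 (adjusted p = 0.533), passed as well (adjusted p = 0.0079). After curcumin liposomes the Igha gate difference was 2.67 ± 1.39 (adjusted p = 0.34) and 0.36 without that library (adjusted p = 0.617). The remaining curcumin DiI-positive values, 5.76 and 5.79, lay at the top of the DiI-negative range. The difference between curcumin and empty liposomes in DiI-positive cells turned from 0.76 to -1.55 without it (adjusted p = 0.259).

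Ighg2b stood at 6.41, 6.96 and 10.59 in empty DiI-positive and 6.52, 7.27 and 7.00 in empty DiI-negative libraries. It stood at 5.78, 8.48 and 7.59 in curcumin DiI-positive and 7.43, 7.76 and 5.86 in curcumin DiI-negative libraries. The gates overlapped throughout, and the highest value was 2.11 above the next, a 4.3-fold gap. The gate difference after empty liposomes was 1.06 ± 0.98 (adjusted p = 0.646) and -0.24 without empty DiI-positive library 3 (adjusted p = 0.911).

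These single-library values were rare among all genes. In curcumin DiI-positive library 1, Igha was the only gene of 14227 that stood more than 2 log2 units above every other library. The next immunoglobulin genes there were the variable segments Ighv1-9, at 8.05 against at most 6.74 elsewhere, and Igkv6-15, at 10.93 against at most 9.95. In empty DiI-positive library 3, Ighg2b was the only such gene, and Cxcl13 followed at 8.82 against at most 7.80. The next immunoglobulin gene there was the variable segment Ighv2-3, at 5.60 against at most 4.89. In curcumin DiI-positive library 2, where Jchain was highest, the light chain segment Igkv4-63 was the only such gene, at 7.17 against at most 5.12. Curcumin DiI-positive library 3 had 7 such genes, among them Kdr, Clec4g and Stab2 of liver sinusoidal endothelium, and none was an immunoglobulin gene. The other 8 libraries had 0. What sets these single-library values was not tested.

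**Figure D3:**
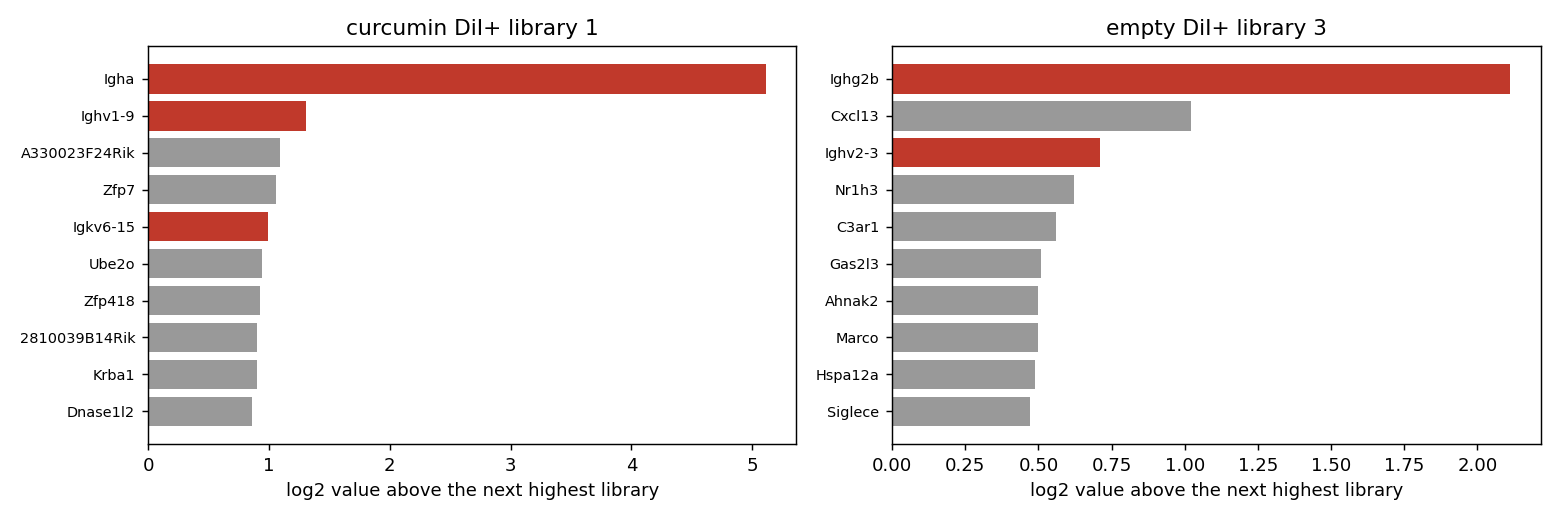
Log2 value above the next highest library (x axis) for the 10 genes with the largest such gap in curcumin DiI-positive library 1 (left) and empty DiI-positive library 3 (right), with immunoglobulin genes in red. Igha leads the first by 5.11 and Ighg2b the second by 2.11.

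Xbp1 was the member that was lower in DiI-positive cells. Its log2 values were 12.75, 12.70 and 13.08 in empty DiI-positive and 13.30, 13.42 and 13.16 in empty DiI-negative libraries. They were 12.89, 13.10 and 13.23 in curcumin DiI-positive and 13.50, 13.31 and 13.36 in curcumin DiI-negative libraries. After empty liposomes the gates did not overlap, where 14.5% of all tested genes were lower without overlap. Over all 12 libraries the gates overlapped, and the whole range of the gene was 12.70 to 13.50. The mean gate difference was -0.38 ± 0.09 (adjusted p = 0.0172), and leaving out any 1 library gave -0.44 to -0.34 with every adjusted p at or below 0.049. Within a single liposome the difference did not pass, at -0.45 ± 0.13 after empty (adjusted p = 0.0843) and -0.32 ± 0.13 after curcumin liposomes (adjusted p = 0.204). These gene-level values do not separate the spliced, active form of the transcript from the unspliced one.

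Prdm1 ran from 8.98 to 10.07 and Irf2 from 11.00 to 11.32. Both extremes of the DiI-positive Prdm1 values were in the empty DiI-positive group (10.07, 8.98 and 9.62), while the curcumin DiI-positive libraries lay together at 9.80, 9.83 and 9.77. The gate difference was 0.19 ± 0.18 for Prdm1 (adjusted p = 0.537) and 0.07 ± 0.06 for Irf2 (adjusted p = 0.492). Irf2 had the narrowest spread of the tested members, with an SD of 0.09 over the 12 libraries.

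Curcumin against empty liposomes asks what the cargo changed in cells of 1 gate. None of the 8 tested members passed, with adjusted p from 0.669 to 0.964 in DiI-positive cells and 1.00 for all 8 in DiI-negative cells. In DiI-positive cells the differences were -0.21 ± 0.49 for Jchain, -0.17 ± 0.28 for Igkc, 0.23 ± 0.13 for Xbp1 and 0.24 ± 0.25 for Prdm1. In DiI-negative cells they were 0.54 ± 0.49, -0.07 ± 0.28, 0.10 ± 0.13 and 0.34 ± 0.25 in the same order. The share of all tested genes called was 0% in DiI-positive cells, 0% in DiI-negative cells and 0% for the difference of the gate contrasts between liposomes. At an unadjusted p under 0.05 limma gave 1165, 469 and 527 genes, and no other tool was run. For the difference of the gate contrasts the members' adjusted p was 0.999 in each case, with -0.76 ± 0.70 for Jchain and 0.76 ± 1.96 for Igha. The SE of Igha and of Jchain leaves room for sizeable differences that these libraries could not show.

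Markers of other cells moved with the gate. All 12 B cell markers tested were higher in DiI-positive cells, with a median difference of 1.17. The summed level of the list (log2 of the summed linear values) ran from 15.93 to 17.19 in DiI-positive and from 15.11 to 15.89 in DiI-negative libraries. All 7 Kupffer cell markers were higher as well (median 3.31), with a summed level of 13.39 to 16.00 in DiI-positive and 10.98 to 12.24 in DiI-negative libraries. Of the other lists, 6 of 8 T and NK cell markers and 4 of 5 markers of type 2 conventional dendritic cells were lower, and 0 of 6 plasmacytoid and 0 of 5 type 1 conventional dendritic cell markers passed. Of the latter, 2 were lower without curcumin library 3 of both gates and 3 without curcumin DiI-positive library 3 alone. The part of any of these cells in the members' gate differences was not tested. None of these markers was at 0 in all libraries of a group, which on this scale does not show that reads were counted. Ms4a1 and Pax5 define B cells and not dendritic cells, and Ms4a1 was at a log2 value of 11.81 or more in every library. The sorting genes were high in all libraries (mean log2 value of the 5 from 16.44 to 16.97). In bulk libraries more cells of a type and more RNA per cell cannot be told apart.

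Each member was therefore also set against the B cell markers of its own library. Igkc differed from the mean of the B cell list by 1.28 ± 0.11 in the dye-positive sorts and 1.27 ± 0.08 in the dye-negative ones (SD, n = 6 each), a gate difference of 0.02 (two-sided exact permutation test within liposomes, p = 0.73). Relative to Ighm the Igkc difference was 0.00 (exact p = 1.00). Kappa chain and B cell markers thus moved by like amounts, with Cd79b and Cd79a, the signalling chains of the B cell receptor, as the genes nearest to Igkc in pattern over the 12 libraries (Pearson r of 0.995 and 0.991 across libraries that share a gate difference).

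Jchain relative to the B cell list was -4.46 ± 0.40 with dye and -5.39 ± 0.85 without, a difference of 0.93 (exact p = 0.05). Leaving out 1 library gave 0.76 to 1.27 with exact p from 0.005 to 0.155. Against Ighm, Jchain was at -7.95 ± 0.43 and -8.87 ± 0.66, a difference of 0.92 (exact p = 0.025). There, leaving out 1 library gave 0.74 to 1.17 with exact p from 0.01 to 0.06. All DiI-positive values relative to Ighm except that of curcumin library 3 (-8.45) lay at -8.24 or higher, and all DiI-negative ones except that of curcumin library 3 (-7.53) lay at -9.05 or lower. Jchain itself was nearly flat, at 5.80 to 5.85, in 5 of the DiI-negative libraries, so its relative values there move mainly with the reference. The part of the shrunken scale in both differences was not tested. The nearest gene to Jchain in pattern was Hdac9, a histone deacetylase (r of 0.977). Spib, a factor of B cells and plasmacytoid dendritic cells, was the fifth (0.913).

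Ighg3 was lower in DiI-positive libraries once set against B cell markers. The values were -6.45 ± 0.41 and -5.83 ± 0.26, a difference of -0.62 (exact p = 0.01), and against Ighm the difference was -0.64 (exact p = 0.005, the smallest that 400 arrangements can give). The scale narrows differences of low genes, and its part in this value was not tested. For Igha the difference relative to the B cell list was 1.14 (exact p = 0.355) and for Ighg2b it was -0.49 (exact p = 0.565). Xbp1 (-1.54), Irf2 (-1.08) and Prdm1 (-0.96) each were lower against the list (exact p = 0.005 for each, the smallest possible), as any gene is that did not rise with the B cell markers. These p-values are for single genes and are not adjusted.

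**Figure D4:**
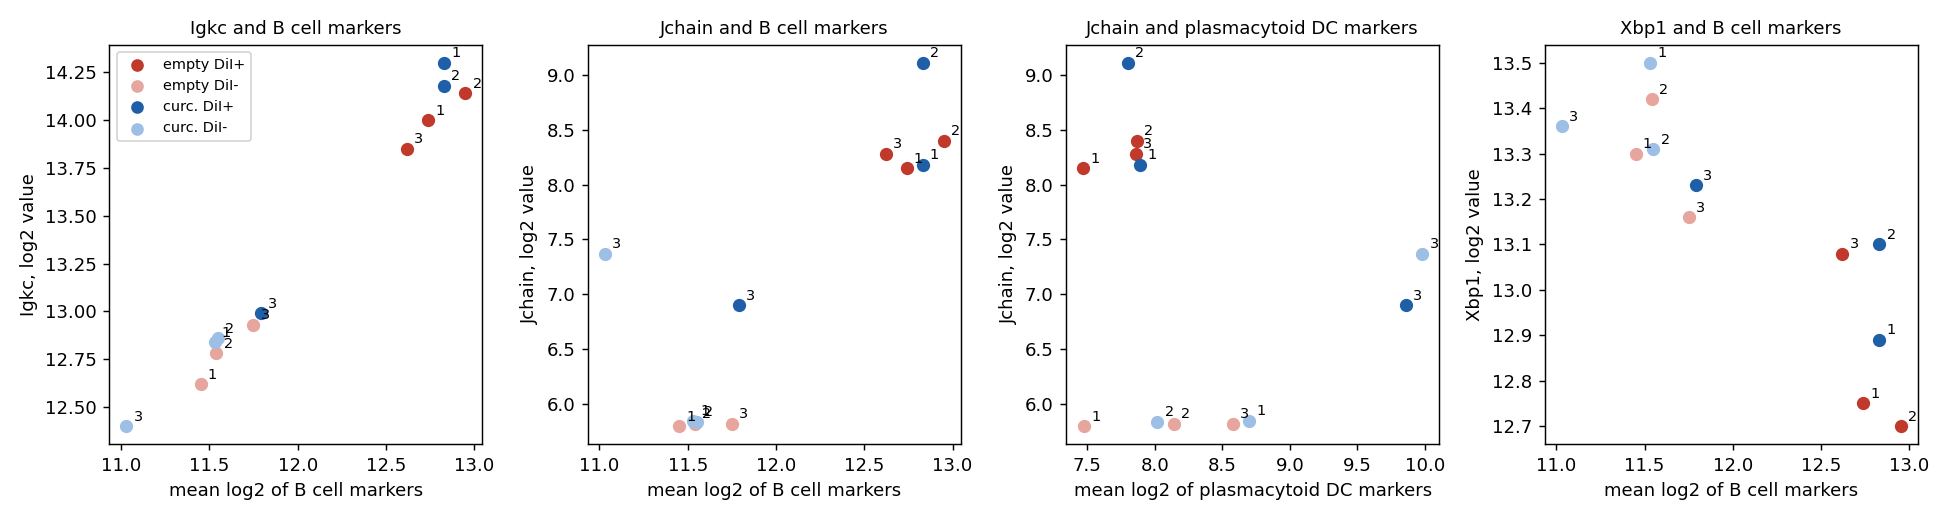
Log2 values of Igkc, Jchain and Xbp1 (y axes) against the mean log2 value of B cell or plasmacytoid dendritic cell (DC) markers (x axes), 1 point per library numbered 1 to 3. Igkc follows the B cell mean in all 12 libraries, and Xbp1 is lowest where B cell markers are highest. The third curcumin libraries have high plasmacytoid markers. Their Jchain is the lowest of the DiI-positive values (6.90) and the highest of the DiI-negative ones (7.37).

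The counts that follow are for the mean gate contrast unless a single liposome is named. In the mean contrast 5.54% of all tested genes rose and 6.56% fell. The shares were 1.32% and 1.62% after empty liposomes alone, and 1.41% and 1.67% after curcumin liposomes alone. The unswitched and lambda constant genes rose, as Igkc did. All 5 that were tested passed: Ighd rose by 1.24 ± 0.23, Ighm by 1.17 ± 0.14, Iglc2 by 1.17 ± 0.23, Iglc1 by 1.08 ± 0.23 and Iglc3 by 1.05 ± 0.18 (adjusted p from 0.000598 to 0.0108). Ighm alone ran from 15.34 to 16.39 in DiI-positive and from 14.88 to 15.13 in DiI-negative libraries. Ighe, the IgE gene, had a mean log2 value of -0.67 and was not tested.

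Of 20 tested plasma cell genes, 7 rose, 1 fell and 12 did not pass in the mean gate contrast, with a median of 0.25 (all tested genes, 5.54% higher and 6.56% lower, median 0.01). After empty liposomes alone 2 rose, and after curcumin liposomes alone 1. Mzb1, a chaperone of antibody assembly that B cells share, rose by 1.21 ± 0.15 (adjusted p = 0.000702) and Pou2af1, a coactivator of octamer promoters, by 1.06 ± 0.19. The receptors for BAFF and APRIL rose too, Tnfrsf13c by 0.91 ± 0.17 and Tnfrsf13b by 0.41 ± 0.10, and Eaf2 by 0.37 ± 0.10. Eaf2 was close to the filter of 4, at 4.45 to 5.11 in DiI-positive and 4.45 to 4.48 in DiI-negative libraries. Slamf7, which natural killer cells and myeloid cells also carry, fell by 0.49 ± 0.10 on the log2 scale. Tnfrsf17, which encodes the plasma cell receptor BCMA, and the homing receptor Ccr10 were below the filter. Several of the risers are B cell genes as well, and their part in the B cell difference was not tested. The count of risers was 4 to 8 when 1 library was left out, and 4 without empty DiI-positive library 1 or 2, empty DiI-negative library 1 or curcumin DiI-negative library 1. A shorter list of 6 plasma cell markers includes Jchain, and 5 of them were tested. Jchain, Mzb1 and Fkbp11 rose, while Sdc1 and Derl3 did not pass. Leaving out 1 library gave 2 to 4 risers on this shorter list.

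Of 28 genes of the XBP1 pathway and the endoplasmic reticulum, 9 fell with Xbp1, 1 rose and 18 did not pass in the mean gate contrast, with a median of -0.20 (all tested genes, 6.56% lower, median 0.01). After empty liposomes alone 1 fell, and after curcumin liposomes alone 2. The widest fall was that of Edem1, which helps to clear misfolded glycoproteins, by 0.82 ± 0.13 (adjusted p = 0.00292). The translocon subunit Sec61b fell by 0.46 ± 0.07, the disulphide isomerases Pdia3 and Pdia6 by 0.39 ± 0.08 and 0.34 ± 0.07, and the chaperone Calr by 0.27 ± 0.05. Syvn1, a ubiquitin ligase of the same compartment, rose by 0.48 ± 0.10. Leaving out 1 library gave 6 to 13 that fell.

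Among 11 factors that hold the B cell state or oppose Prdm1, 5 rose and 1 fell: Ebf1 (1.09 ± 0.13), Spib (1.04 ± 0.16), Pax5 (0.97 ± 0.20), Ets1 (0.81 ± 0.11) and Tcf3 (0.33 ± 0.07) rose, and Spi1, which encodes the myeloid factor PU.1, fell by 0.39 ± 0.08. Of 10 genes known to be repressed by Blimp-1, 6 rose and 0 fell (median 1.01), among them Cd79b (1.24 ± 0.22) and Cd22 (1.13 ± 0.22). These lists share Pax5 and Spib, and the repressed genes that rose are themselves B cell genes. Of 21 tested genes of class switching, 2 rose and 3 fell in the mean gate contrast, where 5.54% of all tested genes rose and 6.56% fell. After empty liposomes alone 0 rose and 1 fell, and after curcumin liposomes alone 0 and 3. The receptor genes Tgfbr2 (0.36 ± 0.08) and Il21r (0.28 ± 0.08) rose, and 1 gene rose in place of 2 when any 1 library other than empty DiI-positive 1 or 3 or curcumin DiI-positive 3 was left out. The widest of these changes was in Tbx21, the T-bet gene, which is active in NK cells, and it fell by 1.20 ± 0.16. Of 10 genes of the interferon regulatory factor family, Irf5 fell by 0.36 ± 0.07 and the other 9 did not pass. No gene of any of these lists passed between curcumin and empty liposomes.

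The promoters of Jchain and Xbp1, the protein-coding members that passed in opposite directions, are shown for comparison. The sequences are the 250 bases before the RefSeq start (GRCm38.p6), with matches on either strand to 4 short motifs in capitals. These are the octamer ATGCAAAT of immunoglobulin promoters, the E-box CANNTG, the CCAAT box CCAAT and the core ACGT of XBP1-type elements. An E-box of the form CACGTG would also hold the core.
Jchain, chr5:88527898-88528147, minus strand: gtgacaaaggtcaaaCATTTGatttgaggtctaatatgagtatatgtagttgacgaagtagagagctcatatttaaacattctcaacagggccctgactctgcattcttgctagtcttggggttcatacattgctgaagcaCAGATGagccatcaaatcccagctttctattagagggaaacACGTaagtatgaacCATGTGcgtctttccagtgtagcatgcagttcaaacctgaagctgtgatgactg
Xbp1, chr11:5520391-5520640, plus strand: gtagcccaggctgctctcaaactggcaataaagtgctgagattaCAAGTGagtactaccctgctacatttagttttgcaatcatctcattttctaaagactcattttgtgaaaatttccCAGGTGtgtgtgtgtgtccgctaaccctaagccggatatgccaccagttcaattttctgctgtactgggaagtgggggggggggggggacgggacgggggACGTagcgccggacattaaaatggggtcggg
Jchain has 3 matches to the E-box and Xbp1 has 2, and 66.2% of 32851 promoter windows of the same length hold at least 1. Each has 1 match to the core ACGT, starting at position -68 in Jchain and -31 in Xbp1, which 26.9% of windows hold. Neither has the octamer, which 1.6% of windows hold, or the CCAAT box, which 33.8% hold. No factor binding was measured in these libraries.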

How the data were processed

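Per the labels' protocols, cDNA was amplified from little RNA by SMARTer chemistry and tagmented with Nextera XT. The authors deposited gene-level log2 values, 1 column per library. The tools named in the submitters' processing notes are DESeq2 1.8.1 and STAR 2.4.0d, with GRCm38 as the build. How reads were counted, on which annotation, and how the log2 values were made is not given in the sources used here. In form they are a regularized log, run from -3.62 to 19.4, and do not tell the read depth, so no interval for counting error is given. The labels hold 24 sample records under 12 library codes, 2 records a code, and each code was counted as 1 library. Groups were read from the codes with the series design. The files pair no symbols with the Ensembl identifiers, so symbols were taken from a reference list of gene names. That list named 99.2% of the genes not at 0. Coordinates and exon lengths were taken from GENCODE M21.

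The 14227 genes averaging at least 4 on the log2 scale were fitted with limma 3.58.1 in R 4.3.3, with a mean for each of 4 groups over all 12 libraries and a trended empirical Bayes prior. Benjamini-Hochberg adjustment ran over all tested genes, with a threshold of 0.05. The fit has 8 residual degrees of freedom and was tested on simulated data. Single genes relative to B cell markers or Ighm were compared by exact permutation of the gate labels within each liposome. These p-values were left unadjusted, although the design had set an adjustment over the members. The members and all gene lists were chosen with earlier results of these data known. Of each list, the genes past the threshold in the mean gate contrast, up to 6 by smallest p, could be named, or otherwise the 2 with the smallest p. A few list genes outside that rule are named for falling below the filter or as markers, after their values were seen. Cxcl13, the variable segments and the endothelial genes were also named after their values were seen. Nearest genes are those with the highest Pearson correlation over the 12 libraries among genes with an SD of at least 0.3. Alternatives covered the filter, the scaling, library weights, the prior, a replicate block, the fit to 6 libraries, Cd79a as reference and each library left out. Some list genes are not reported here.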

Additional observations from a re-analysis of the deposited data

How the results depend on the processing

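The 4 calls of the mean gate contrast (Jchain, Igkc and Ighg3 higher, Xbp1 lower) kept their direction and passed under every alternative in which the gene was tested, except Ighg3 without empty DiI-negative library 1. A mean log2 filter of 6 left Ighg3 untested. Without a filter on low values Igkc after empty liposomes no longer passed (1.22, adjusted p = 0.0717). Whether replicate numbers pair the libraries is not settled. Deviations of same-numbered libraries correlated with r from -0.11 to 0.33, over 0.1 in 2 of 18 pairs. For different numbers r ran from -0.24 to 0.20, over 0.1 in 2 of 36. Between the gates of 1 liposome, same-numbered libraries gave 0.08, 0 and 0.08 (empty) and 0.07, 0.03 and 0.33 (curcumin). The main fit and the permutation tests took the libraries as unpaired, and the replicate block joined numbers across liposomes as well. With a replicate block the curcumin gate difference of Igkc, 1.12, passed (adjusted p = 0.0448), and no other member's call changed with the block. That difference also passed with a mean log2 filter of 6 (adjusted p = 0.0373) and with quantile normalization (0.0463). After empty liposomes Ighg3 (0.61, adjusted p = 0.0308) and Xbp1 (-0.45, 0.044) passed with library weights, and Igha (1.91, 0.0185) in a fit to the 6 libraries alone. The number of genes called after empty liposomes, 419, was 263 without a filter, 789 with library weights, 666 without curcumin library 3 of both gates, and 85 to 659 with 1 library left out. After curcumin liposomes, 437 became 248 without a filter, 40 in a fit to the 6 libraries alone, 706 without library 3 of both gates, and 114 to 1088 with 1 left out. Curcumin against empty liposomes in DiI-positive cells gave 3 genes without library 3 of both gates and 0 to 4 with 1 left out, and the difference of the gate contrasts gave 1 and 0 to 2. Among the gene lists, leaving out curcumin library 3 of both gates gave 7 plasma cell genes higher and 1 lower, and 2 higher and 9 lower of the XBP1 pathway. The count of those that fell moved from 3 to 5 in class switching, from 1 to 2 among B cell state factors and in the IRF family, and from 0 to 2 among type 1 conventional dendritic cell markers. Every sign change was in a difference that had not passed. Without curcumin library 3 of both gates the curcumin gate difference was -0.47 for Ighg2b and -0.07 for Prdm1, and the difference between liposomes was 0.03 for Ighg3, 0.24 for Igkc and 0.37 for Jchain in DiI-positive cells and 0.08 for Igkc in DiI-negative cells. Centring libraries on their median, with or without immunoglobulin genes, gave 0.02 for Igha between liposomes in DiI-negative cells. Against Cd79a alone the Igkc gate difference was -0.08. With 1 library left out, the empty gate difference ran from -0.24 to 1.85 for Ighg2b, -0.01 to 0.53 for Prdm1 and 0.00 to 0.06 for Irf2, and the curcumin gate difference from -0.34 to 1.02 for Ighg2b and -0.09 to 0.29 for Prdm1. Between liposomes in DiI-positive cells the ranges were -1.55 to 1.92 (Igha), -1.49 to 0.59 (Ighg2b), -0.25 to 0.09 (Ighg3), -0.41 to 0.24 (Igkc), -0.74 to 0.37 (Jchain) and -0.05 to 0.50 (Prdm1). In DiI-negative cells they were -0.27 to 0.29 (Igha), -0.29 to 0.67 (Ighg2b) and -0.15 to 0.08 (Igkc). Igkc ran from -0.02 to 0.05 against the B cell list and from -0.07 to 0.06 against Ighm. The cause of these changes was not tested, beyond the fewer libraries or genes in each fit.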
